A study of Mus musculus with 36 samples.

Results

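The enzyme families that modify foreign and endogenous lipophilic compounds were followed in the kidney cortex of male ApoE-/- mice with and without diabetes. Members were all genes of the deposited count table whose symbol starts with Cyp2 and a subfamily letter, Cyp3a, Ugt1a to Ugt3b, Gst of the alpha, kappa, mu, pi, theta or zeta class, Ces1 to Ces3, or Sult and a digit. The symbols alone chose them, and 66 of 15730 genes met this rule: 22 Cyp2 genes, 1 Cyp3a gene, 9 Ugt genes, 16 Gst genes, 11 Ces genes and 7 Sult genes. All 66 passed the low-count filter. GENCODE M21 lists 136 protein-coding mouse genes with such symbols, of which 65 were in the table, together with the pseudogene Cyp2j15-ps; the others were not analysed here.

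The 36 libraries fall into 6 groups of 6: diabetic mice given LXA4, benzo-LXA4 or vehicle, and nondiabetic mice given LXA4, benzo-LXA4 or vehicle. Every mouse was an ApoE-/- male on a C57BL/6 background, a strain prone to atherosclerosis, so the disruption of Apoe is shared by all groups. Diabetes was brought about by streptozotocin, a toxin of pancreatic beta cells, injected on 5 days at 55 mg/kg in mice aged 6 weeks, per the labels. What nondiabetic mice received in place of streptozotocin is not given in the labels. LXA4 (lipoxin A4, a lipid mediator made from arachidonic acid) was given at 5 µg/kg, benzo-LXA4 (a synthetic relative that carries a benzene ring) at 1.7 µg/kg and the ethanol vehicle at 0.1%. The labels describe an intervention design with 16 weeks of follow-up and treatment between weeks 10 and 16, but do not state whether these libraries belong to it. They number the replicates and do not call each a separate mouse, so p-values measure only how far these samples spread, part of which may be technical.

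Phase I enzymes such as the cytochromes P450 of families 2 and 3 add or expose a reactive group by oxidation, and carboxylesterases (Ces) do so by cleaving esters and amides. Phase II enzymes attach a soluble group. UDP-glycosyltransferases (Ugt) add a sugar, glutathione S-transferases (Gst) add glutathione and sulfotransferases (Sult) add sulfate. In the kidney most of this metabolism takes place in the proximal tubule, where the products pass into the urine, and several of the mouse genes are known to differ between male and female kidneys.

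Total counts per library ran from 8896193 to 43305005. Diabetic LXA4 replicate 6 was the shallowest and had 56.9% of its counts on genes of ribosomal and small structural RNA, against 17.7% in nondiabetic vehicle replicate 3 and at most 6.81% in the others. The members together took 0.149% of the counts of diabetic LXA4 replicate 6, and a median of 0.646% and at most 0.834% over all libraries. Apoe was counted at 1.62 to 3.42 CPM in all libraries, and no library with an intact gene was in the series. Of 16 proximal tubule markers none was at 0 in any library. Values are CPM, in which a count is set against its library's total after TMM scaling.

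The members span a wide range of levels. Mean CPM over all libraries was above 100 in 14 members, from 10 to 100 in 25, from 1 to 10 in 17 and under 1 in 10. Levels of different genes are compared per kilobase of exon, on which scale Cyp2e1, which oxidises ethanol, acetone and small solvents, stood highest at 359 ± 108 CPM per kb (mean ± SD over 36 libraries). Cyp2j5, a renal P450 that makes epoxides of arachidonic acid in the mouse, followed at 353 ± 86.6 CPM per kb. The difference between Cyp2e1 and Cyp2j5 was not tested. Ugt3a2, of a small family whose human members use sugar donors other than glucuronic acid, stood at 275 ± 62.3 CPM per kb, Ugt2b38 at 185 ± 63.1 and the steroid hydroxylase gene Cyp2a4 at 175 ± 56.7. Sult1d1, which sulfates catecholamines in the mouse, stood at 149 ± 35.0, the lipid-hydrolysing esterase Ces1f at 121 ± 36.6 and the mu-class transferase Gstm1 at 105 ± 22.6.

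Each family was dominated by a few members. Cyp2j5, Cyp2e1, Cyp2j13 and Cyp2a4 held 27.5%, 25.7%, 14% and 10.1% of the summed CPM of the Cyp2 members. Ugt3a2 and Ugt2b38 held 58.8% and 24.1% of the Ugt sum, and Ces1f, Ces1d and Ces2c 48.3%, 23.4% and 18.4% of the Ces sum. In the Sult family Sult1d1 alone held 81.5%, whereas the Gst sum was spread more evenly, with Gstm1 at 22.9% and Gstz1 at 20.2%. A change of a family sum is therefore mostly a change of these genes. Members also share sequence. Of the 50-base words of Ugt1a10 63.0% occur in another gene, because the Ugt1a genes share their last exons, and 41.9% of its exon length lies outside exons of other genes on its strand. The shared part was 54.3% for Cyp2c69 (mostly with Cyp2c40), 54.3% for Gstp2 (Gstp1), 53.7% for Ugt1a7c (the other Ugt1a genes) and 49.8% for Gsta2 (Gsta1). It was 41.7% for Ugt2b5 (Ugt2b38), 38.0% for Cyp2a4 (Cyp2a5), 37.4% for Ugt2b38 (Ugt2b5) and 37.0% for Cyp2a5 (Cyp2a4). For Ces2c (Ces2d-ps) it was 36.1%, for Gstp1 (Gstp2) 33.7% and for Cyp2d9 21.8%. How reads with several matches were counted is not given in the sources used here, so for these genes the member from which reads came is uncertain.

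The summed level of the Cyp2, Ugt and Ces families was lower in diabetic than in nondiabetic mice under each treatment, while the Gst and Sult sums showed no common direction. The 22 Cyp2 members summed to 2467 ± 553 CPM in diabetic vehicle mice and 3460.1 ± 498 CPM in nondiabetic vehicle mice (mean ± SD, n = 6 each). With LXA4 the values were 2421 ± 585 CPM in diabetic and 3765 ± 197 CPM in nondiabetic mice, and with benzo-LXA4 2813 ± 385 and 3185 ± 379 CPM in diabetic and nondiabetic mice. The ranges of diabetic and nondiabetic libraries overlapped with vehicle and benzo-LXA4 and did not overlap with LXA4.

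The 9 Ugt members summed to 1276 ± 253 CPM in diabetic and 1629 ± 281 CPM in nondiabetic vehicle mice, with LXA4 to 1109 ± 339.6 and 1877 ± 98.4 CPM in diabetic and nondiabetic mice, and with benzo-LXA4 to 1293 ± 152 and 1517 ± 201 CPM. The 11 Ces members summed to 599 ± 184 CPM in diabetic and 997 ± 187 CPM in nondiabetic vehicle mice, with LXA4 to 669 ± 94.6 and 1074 ± 76.1 CPM in diabetic and nondiabetic mice, and with benzo-LXA4 to 713 ± 108 and 892 ± 217 CPM. Both families, too, were separated without overlap only under LXA4. The 16 Gst members summed to 749 ± 107 CPM in diabetic and 678 ± 49.2 CPM in nondiabetic vehicle mice, and the 7 Sult members to 477 ± 105 and 445 ± 76.0 CPM. Averaged over the treatments, the mean sum in diabetic mice was 0.740 times that in nondiabetic mice for Cyp2, 0.732 times for Ugt, 0.669 times for Ces, 0.922 times for Sult and 1.03 times for Gst. These means include diabetic LXA4 replicate 6, the lowest of its group in the Cyp2, Ugt, Gst and Sult sums. In bulk tissue fewer cells of a type and less RNA per cell cannot be told apart.

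**Figure D1:**
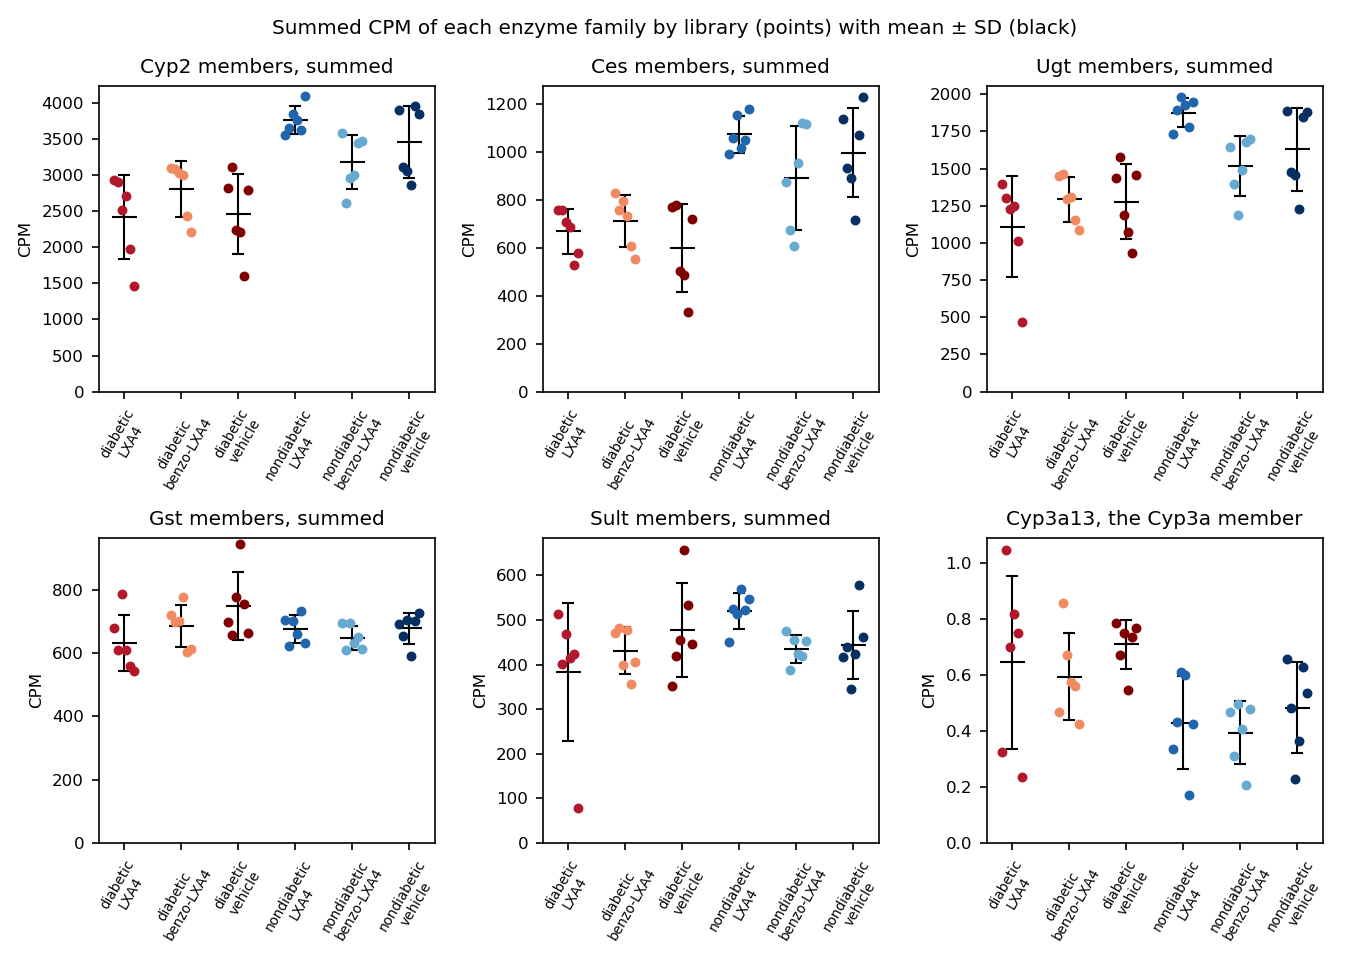
Summed CPM of the members of each family in each library (points), with mean ± SD (black), for the 3 diabetic groups and then the 3 nondiabetic groups; Cyp3a13 is the single Cyp3a member. The Cyp2, Ugt and Ces sums sit lower in the diabetic groups, and 1 diabetic LXA4 library (replicate 6) lies far below the others in the Sult sum, at 78.4 CPM. In the Ugt, Cyp2 and Gst sums that library was also the lowest of its group, at 466, 1465 and 545 CPM.

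The number of members called between diabetic and nondiabetic mice was highest under LXA4. Each gene of the whole table was tested by edgeR's quasi-likelihood method, and a gene is called changed at a Benjamini-Hochberg adjusted p under 0.05; rose and fell are used only of such genes. Under vehicle 13 of 66 members were called (19.7%), 5 higher and 8 lower in diabetic mice, against 5.6% of all genes tested (3.44% higher and 2.16% lower). Under LXA4 31 were called (47%), 7 higher and 24 lower, against 27.7% of all genes (15.4% and 12.3%). Under benzo-LXA4 7 were called (10.6%), 5 higher and 2 lower, against 4.06% of all genes (2.81% and 1.25%). These comparisons share no libraries. Whether they differ from each other was tested by interactions.

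With the 3 treatments averaged, 45 of 66 members were called (68.2%), 18 higher and 27 lower in diabetic mice, against 35.4% of all genes (18.8% higher and 16.6% lower). The median log2 difference of the members was -0.16 under vehicle, -0.22 under LXA4, 0.01 under benzo-LXA4 and -0.12 on average, beside medians of -0.01, 0.05, -0.01 and 0.01 over all genes. Without both libraries rich in structural RNA the members' medians were -0.043, -0.22, 0.0015 and -0.096 in the same order. With voom and quality weights they were -0.039, -0.16, 0.032 and -0.12, so the vehicle median depended on these choices. The log2 difference had the same sign under all 3 treatments in 47 members (71.2%), 20 higher and 27 lower in diabetic mice, and in 54.8% of all genes. Ugt1a10 and Ces2e were called under all 3 treatments, 11 members under 2, 23 under 1 and 30 under none. The matching counts were not made over all genes, so these describe the members only. By family, the average called 8 higher and 10 lower of 22 Cyp2 members, 2 and 5 of 9 Ugt, 4 and 4 of 16 Gst, 1 and 7 of 11 Ces and 2 and 1 of 7 Sult members, besides Cyp3a13, which was higher.

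The count under vehicle rested on a few libraries. It was 7 without diabetic vehicle replicate 3 or replicate 4, 6 without replicate 5 and 8 without nondiabetic vehicle replicate 6. Those 4 fits called 555, 469, 441 and 545 of all genes, against 881 with every library, so calls over the whole table fell as well. Without both libraries rich in structural RNA the counts were 18 under vehicle, 32 under LXA4, 14 under benzo-LXA4 and 46 on average. The same fits called 1399, 5796, 1906 and 7452 of all 15726 genes in these comparisons, against 881, 4353, 638 and 5570 with those libraries, so calls over the whole table rose as well.

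**Figure D2:**
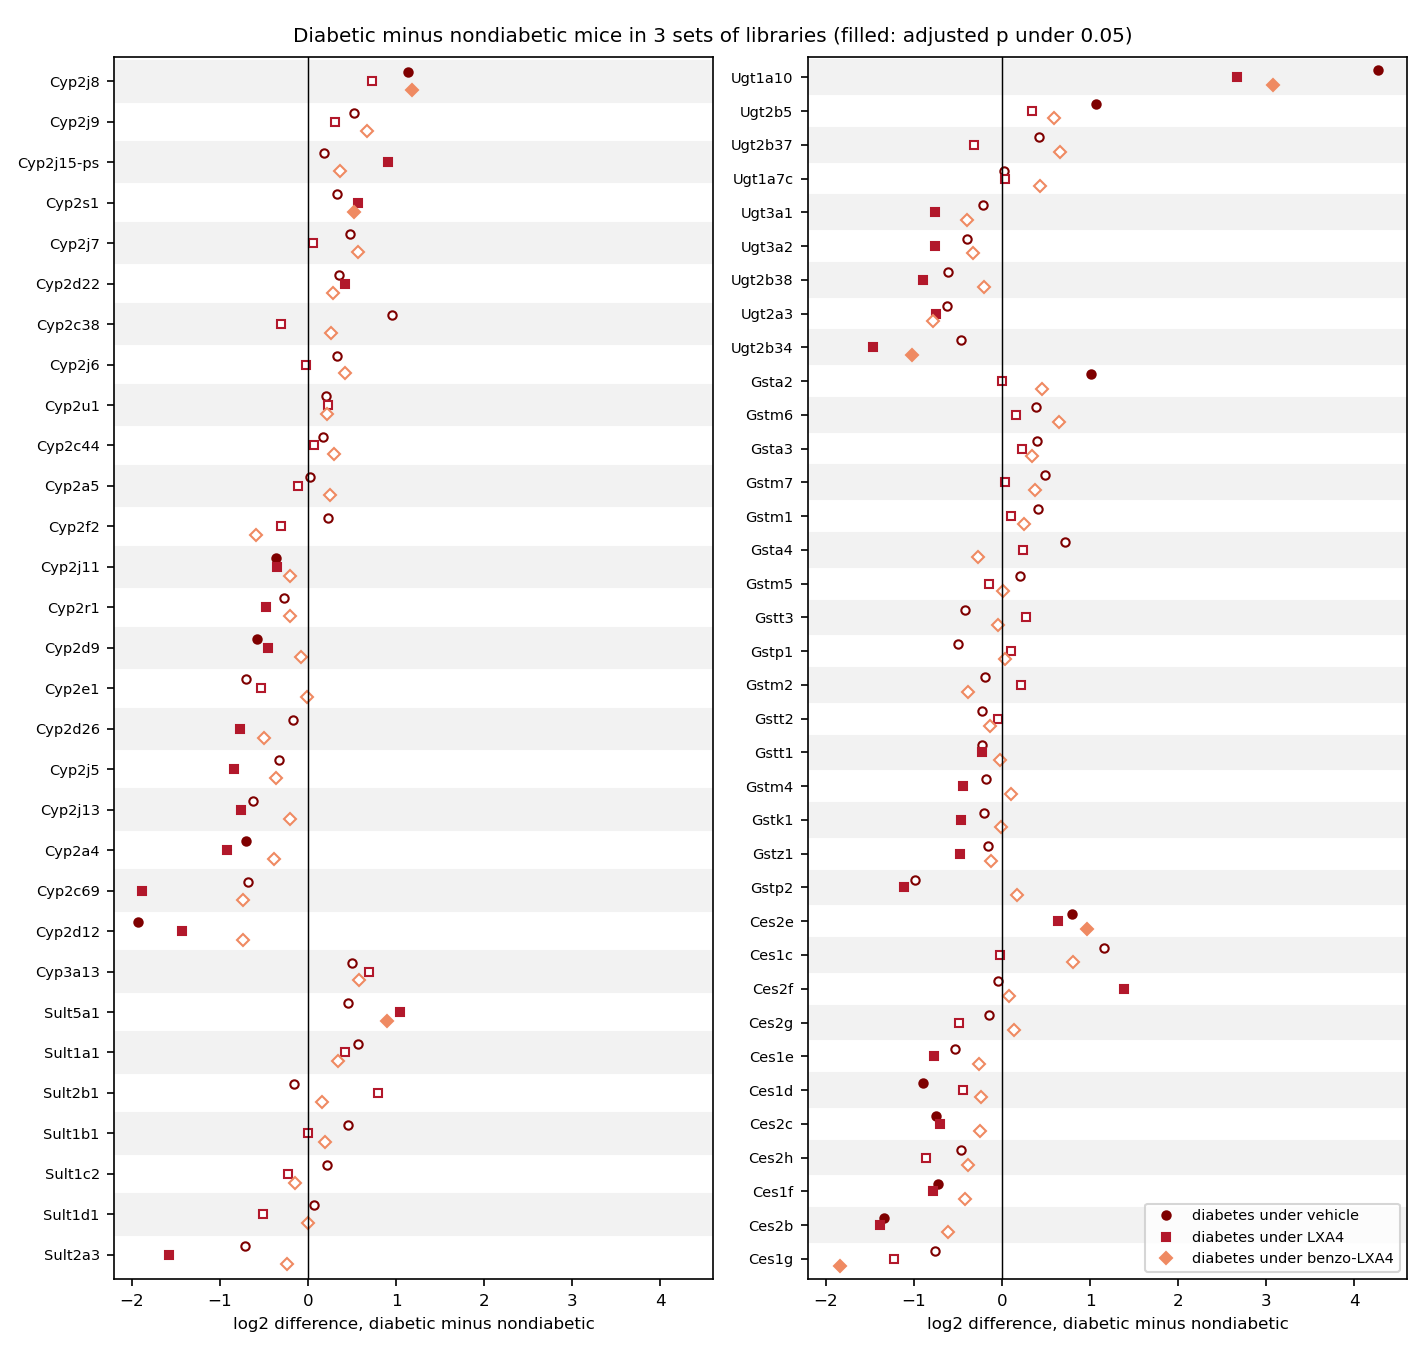
The log2 difference of diabetic from nondiabetic mice for each of the 66 members (rows, by family), with a marker for each treatment: vehicle, LXA4 and benzo-LXA4; filled markers are called at an adjusted p under 0.05. Most members keep 1 side of 0 under all treatments, Ugt1a10 lies farthest to the right and Cyp2d12, Cyp2c69, Ces1g and Ces2b lie to the left.

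Among the Cyp2j genes, which encode epoxygenases of arachidonic acid, the 3 with the highest level per kilobase fell and the others rose on average. The Cyp2j cluster lies on chromosome 4 at 96027534 to 96664154 (GRCm38). Cyp2j5 ran from 276 to 735 CPM (median 686) in diabetic LXA4 mice, against 1016 to 1196 CPM (median 1077) in nondiabetic LXA4 mice. Under vehicle it ran from 540.1 to 911 CPM (median 773) in diabetic mice, against 684 to 1099 CPM (median 942) in nondiabetic mice. The LXA4 groups were separated, whereas the vehicle groups overlapped. Replicate 6 was the lowest of the diabetic LXA4 libraries, so leaving it out could not make those groups overlap. Cyp2j5 fell by 0.84 on the log2 scale under LXA4 (adjusted p = 0.000369), the difference was -0.33 (adjusted p = 0.218) under vehicle and -0.37 (adjusted p = 0.209) under benzo-LXA4, and the average was -0.51 (95% interval -0.70 to -0.33, adjusted p = 5.71e-05). Cyp2j11 and Cyp2j13 fell on average as well, with log2 differences of -0.31 (adjusted p = 4.22e-05) and -0.53 (adjusted p = 0.00178). Cyp2j11 also fell under vehicle, at -0.37 (adjusted p = 0.0153), a call lost without diabetic vehicle replicate 4 or 5.

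Cyp2j8 moved the other way. Under vehicle it ran from 4.34 to 7.72 CPM (median 6.03) in diabetic mice, against 1.70 to 4.18 CPM (median 2.52) in nondiabetic mice, and under benzo-LXA4 from 3.41 to 5.85 CPM (median 4.54) in diabetic mice, against 1.30 to 2.74 CPM (median 2.09) in nondiabetic mice. Neither pair of groups overlapped. Under LXA4 the diabetic libraries held 1.45 to 9.45 CPM (median 3.29) and the nondiabetic ones 1.28 to 2.94 CPM (median 2.07), which did overlap. Cyp2j8 rose by 1.1 (adjusted p = 0.0139) under vehicle and 1.18 (adjusted p = 0.0134) under benzo-LXA4, and the difference under LXA4 was 0.73 (adjusted p = 0.0610). The high value of the diabetic LXA4 group is that of replicate 6, without which the difference was 0.42 (adjusted p = 0.198). Cyp2j7 and Cyp2j9 rose on average, by 0.36 (adjusted p = 0.00438) and 0.50 (adjusted p = 0.00329). Cyp2j6 did so by 0.24 (adjusted p = 0.0435), a call lost without any of 22 of the 36 libraries. The pseudogene Cyp2j15-ps rose by 0.91 (adjusted p = 0.0299) under LXA4, a call that rested on replicate 6 at 150.4 CPM, since without it the difference was 0.11 (adjusted p = 0.607).

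In the Cyp2d cluster (chromosome 15, 82370527 to 82794294) 3 genes fell and 1 rose. Cyp2d12 ran from 15.7 to 50.4 CPM (median 28.9) in diabetic vehicle mice, against 54.2 to 208 CPM (median 98.2) in nondiabetic vehicle mice. With LXA4 it ran from 11.1 to 66.2 CPM (median 32.2) in diabetic mice, against 70.8 to 119 CPM (median 93.5) in nondiabetic mice. Both pairs were separated, and under benzo-LXA4, at 27.4 to 68.4 CPM (median 33.6) in diabetic mice against 34.9 to 102 CPM (median 60.2) in nondiabetic mice, the groups overlapped. Cyp2d12 fell under vehicle and LXA4, with log2 differences of -1.93 (95% interval -2.58 to -1.27, adjusted p = 0.000263) and -1.43 (adjusted p = 0.00168), and the difference under benzo-LXA4 was -0.74 (adjusted p = 0.207). Cyp2d9, a testosterone hydroxylase of male mice, fell under vehicle and LXA4, with -0.58 (adjusted p = 0.0437) and -0.46 (adjusted p = 0.0486). Cyp2d26 fell under LXA4, with -0.78 (adjusted p = 0.00403). Cyp2d22 rose by 0.42 (adjusted p = 0.0395) under LXA4 and by 0.35 (adjusted p = 0.00223) on average. The calls of Cyp2d9 under vehicle and LXA4, and that of Cyp2d22 under LXA4, were each lost without any of 9 of the 12 libraries compared.

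Of the other Cyp2 genes, Cyp2a4 ran from 146 to 264 CPM (median 209) in diabetic LXA4 mice, against 317 to 456 CPM (median 393) in nondiabetic LXA4 mice, with no overlap. It fell under LXA4, with a log2 difference of -0.92 (adjusted p = 0.00144), and under vehicle, with -0.71 (adjusted p = 0.0300), a call lost without any of 6 of the 12 libraries. For its near copy Cyp2a5, picked here for its likeness after its values were seen, the average difference was 0.052 (adjusted p = 0.820). Cyp2c69 fell under LXA4, with -1.89 (adjusted p = 0.000724), at 0.201 ± 0.109 CPM in diabetic and 0.862 ± 0.243 CPM in nondiabetic LXA4 mice. Cyp2e1 fell on average, with -0.42 (adjusted p = 0.0311), a call lost without diabetic vehicle replicate 3 or 4, diabetic benzo-LXA4 replicate 6 or nondiabetic benzo-LXA4 replicate 1. Cyp2s1, a P450 of epithelia outside the liver, ran from 11.3 to 14.3 CPM (median 12.5) in diabetic benzo-LXA4 mice, against 8.01 to 10.9 CPM (median 8.31) in nondiabetic benzo-LXA4 mice. Those groups did not overlap, nor did the LXA4 groups. Cyp2s1 rose by 0.53 (adjusted p = 0.00349) under benzo-LXA4 and 0.57 (adjusted p = 0.000448) under LXA4, with 18 of 18 diabetic libraries above the nondiabetic mean. The average was 0.47 (adjusted p = 9.56e-07). Cyp2u1, a fatty acid hydroxylase, rose by 0.21 (adjusted p = 0.00856) on average, while Cyp2r1, which hydroxylates vitamin D, fell, with -0.32 (adjusted p = 0.00436). Cyp3a13, the sole Cyp3a gene measured, rose on average by 0.59 (adjusted p = 0.00426) at 0.650 ± 0.200 CPM in diabetic and 0.436 ± 0.145 CPM in nondiabetic libraries (mean ± SD, n = 18 each).

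**Figure D3:**
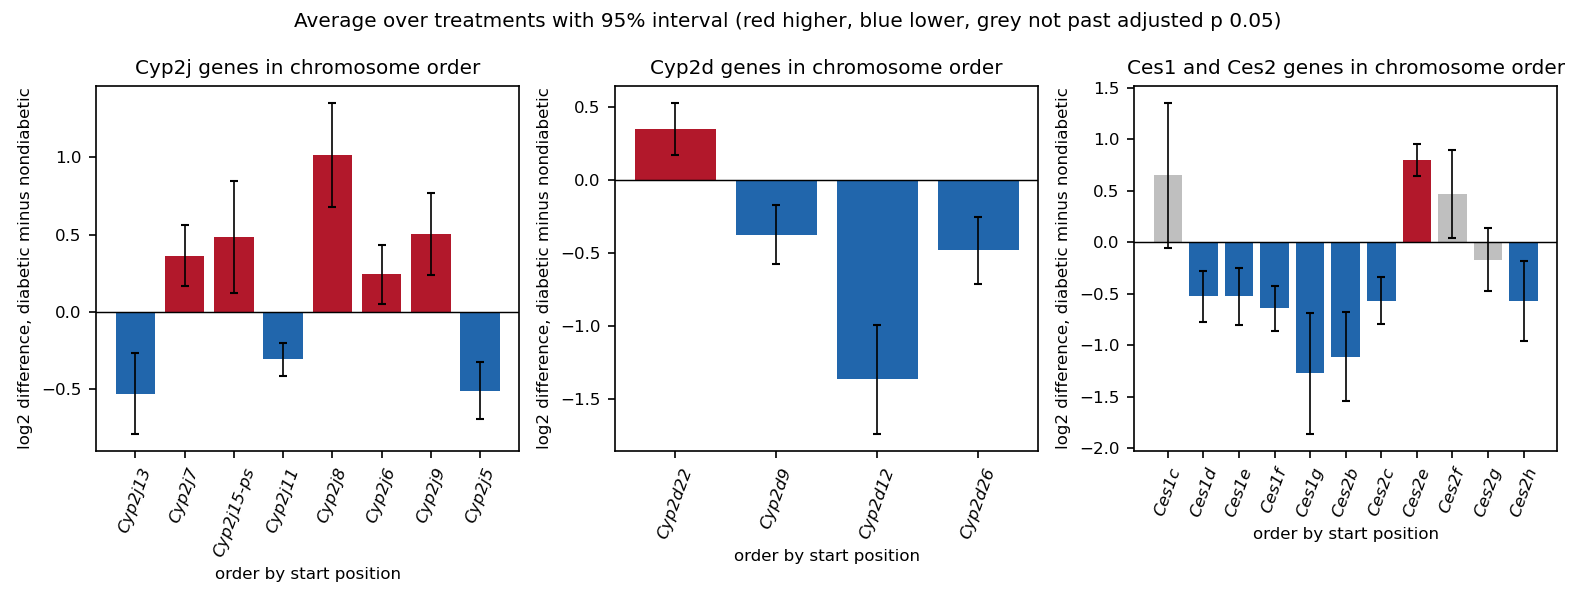
The log2 difference of diabetic from nondiabetic mice averaged over treatments, with 95% interval, for the Cyp2j, Cyp2d and Ces1 with Ces2 genes in their order along the chromosome (red higher, blue lower, grey not called). Genes that rose lie beside genes that fell among the Cyp2j, Cyp2d and Ces2 genes, but not among the Ces1 genes, where none rose; an example is Ces2e at 0.80 near Ces2c at -0.57.

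Ugt1a10, of the Ugt1a locus whose enzymes glucuronidate bilirubin and phenols, showed the largest difference among the members. Under vehicle it ran from 3.47 to 52.0 CPM (median 11.5) in diabetic mice, against 0.628 to 1.89 CPM (median 0.930) in nondiabetic mice. Under LXA4 it ran from 0.945 to 23.4 CPM (median 6.17) in diabetic mice, against 0.694 to 2.70 CPM (median 0.921) in nondiabetic mice, and under benzo-LXA4 from 5.72 to 14.7 CPM (median 9.91) in diabetic mice, against 0.407 to 3.50 CPM (median 0.772) in nondiabetic mice. The groups overlapped only under LXA4, and within diabetic vehicle mice the libraries themselves were spread widely, with replicates 3, 4 and 5 at 15.4, 52.0 and 40.3 CPM above the other three. Ugt1a10 rose by 4.28 (95% interval 2.91 to 5.65, adjusted p = 0.000117) under vehicle, 2.66 (adjusted p = 0.00257) under LXA4 and 3.08 (adjusted p = 0.00381) under benzo-LXA4. On average it rose by 3.34 (95% interval 2.58 to 4.10, adjusted p = 4.61e-08), with 17 of 18 diabetic libraries above the nondiabetic mean. Without diabetic LXA4 replicate 6, the lowest of its group, the LXA4 difference was 2.85 (adjusted p = 0.00126). Ugt1a7c, which shares its last exons, differed by 0.17 (adjusted p = 0.353).

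Of the other Ugt genes 5 fell and 1 rose on average. Ugt2b34 ran from 4.12 to 9.83 CPM (median 6.17) in diabetic LXA4 mice, against 15.1 to 22.1 CPM (median 18.5) in nondiabetic LXA4 mice, and from 4.39 to 7.77 CPM (median 6.72) in diabetic benzo-LXA4 mice, against 9.80 to 17.4 CPM (median 13.2) in nondiabetic benzo-LXA4 mice. Neither pair overlapped, and under vehicle they did. It fell under LXA4 and benzo-LXA4, with log2 differences of -1.47 (adjusted p = 7.31e-05) and -1.02 (adjusted p = 0.00881), and the difference under vehicle was -0.47 (adjusted p = 0.239). Ugt3a2 and Ugt3a1 fell under LXA4, with -0.75 (adjusted p = 0.000407) and -0.76 (adjusted p = 0.00124). Under vehicle their differences were -0.39 (adjusted p = 0.0983) and -0.22 (adjusted p = 0.461), and under benzo-LXA4 -0.33 (adjusted p = 0.218) and -0.39 (adjusted p = 0.190). Ugt2b38 and Ugt2a3 fell under LXA4 too, with -0.90 (adjusted p = 0.0132) and -0.75 (adjusted p = 0.0497), the second a call lost without any of 9 of the 12 libraries. Ugt2b5, which resembles Ugt2b38, rose by 1.07 (adjusted p = 0.0101) under vehicle, with 3.13 to 4.76 CPM (median 3.98) in diabetic and 0.931 to 3.51 CPM (median 1.75) in nondiabetic vehicle mice.

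**Figure D4:**
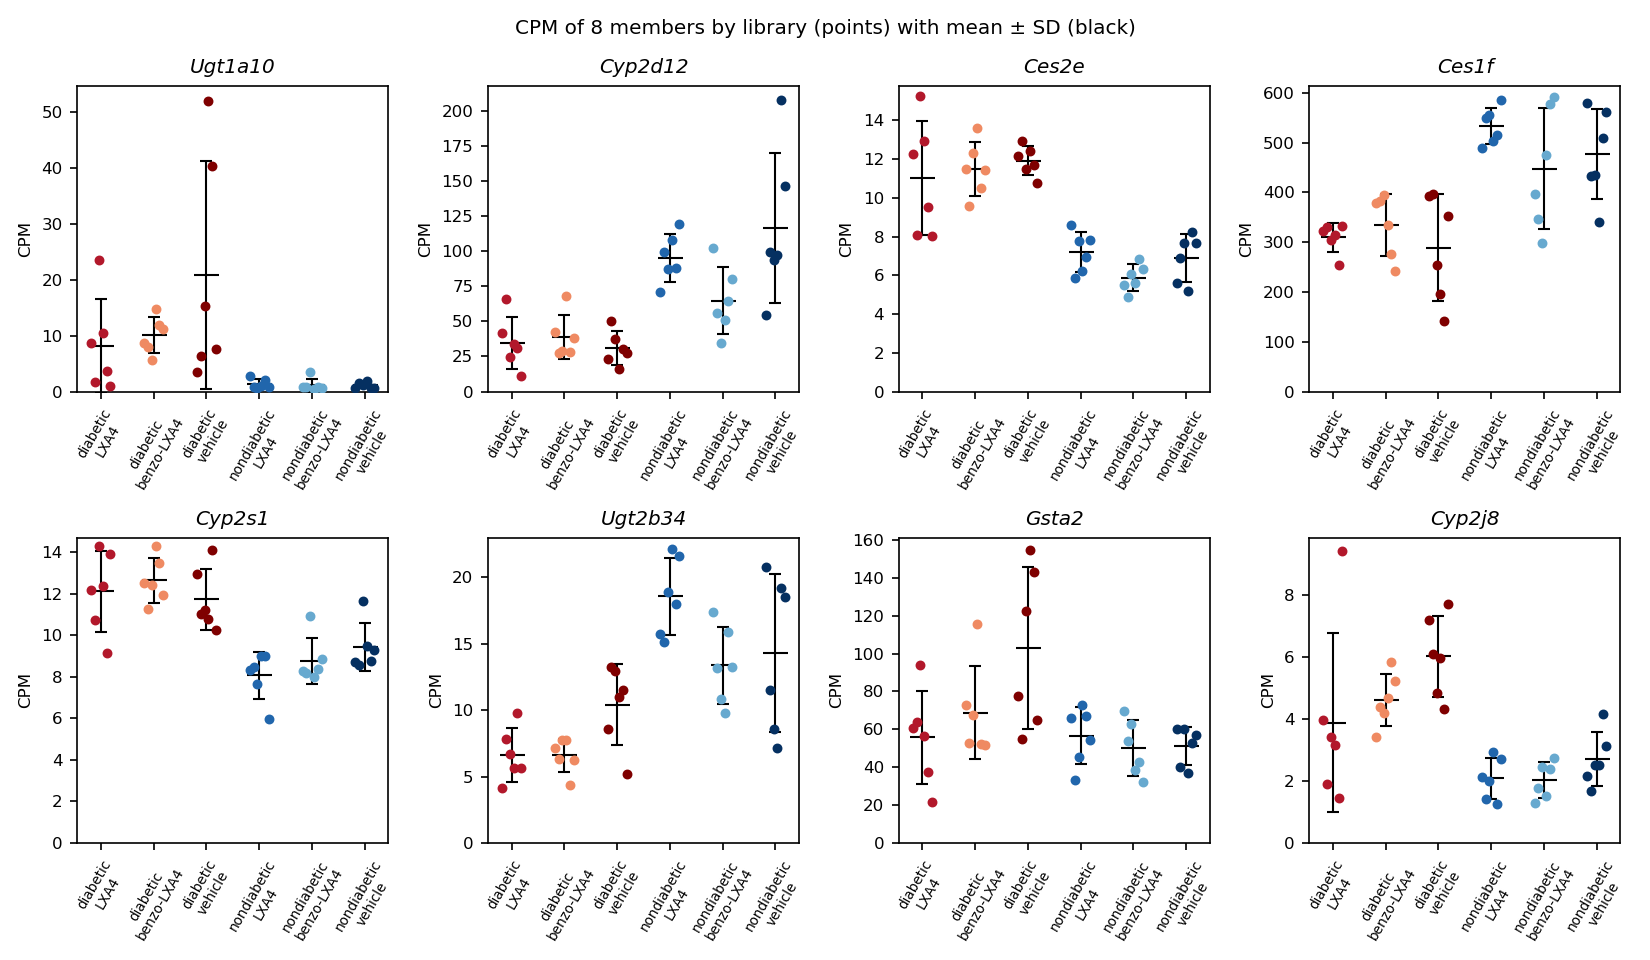
CPM of 8 members in each library (points), with mean ± SD (black), for the 3 diabetic groups and then the 3 nondiabetic groups. Ugt1a10, Ces2e, Cyp2s1 and Cyp2j8 stand higher in the diabetic groups, Cyp2d12, Ces1f and Ugt2b34 stand lower, and Gsta2 is highest in diabetic vehicle mice, where it spreads from 55.0 to 154.6 CPM.

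Under LXA4 5 of the 16 Gst genes were called (31.2%), all of them lower, against 27.7% of all genes called there (15.4% higher and 12.3% lower). Gsta2, an alpha-class enzyme that handles lipid peroxides, ran from 55.0 to 155 CPM (median 100.1) in diabetic vehicle mice, against 37.2 to 60.4 CPM (median 54.8) in nondiabetic vehicle mice. Replicates 3, 4 and 5 of the diabetic group, at 122.5, 154.6 and 142.8 CPM, were again the highest, and the ranges overlapped. Gsta2 rose by 1.01 (adjusted p = 0.0244) under vehicle, a call that was lost without any of these 3 libraries, and the difference was -0.0041 (adjusted p = 0.993) under LXA4 (0.16 without replicate 6) and 0.46 (adjusted p = 0.410) under benzo-LXA4. Gstz1, which also serves tyrosine breakdown as maleylacetoacetate isomerase, ran from 75.6 to 134 CPM (median 118) in diabetic LXA4 mice, against 151 to 167 CPM (median 156) in nondiabetic LXA4 mice, without overlap. It fell under LXA4, with -0.48 (adjusted p = 0.00327). Gstp2, Gstm4, Gstk1 and Gstt1 fell under LXA4, with -1.11 (adjusted p = 0.00973), -0.45 (adjusted p = 0.00987), -0.46 (adjusted p = 0.0212) and -0.23 (adjusted p = 0.0311). The call of Gstt1 was lost without any of 5 of the 12 libraries, and those of Gstm4, Gstk1 and Gstt1 in a fit of only the LXA4 groups (adjusted p = 0.0887, 0.148 and 0.103). Of the 16 Gst members 0 were called under benzo-LXA4. On average Gsta3, Gstm1 and Gstm7 rose by 0.32, 0.26 and 0.30 (adjusted p = 0.0199, 0.0214 and 0.0193).

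In the carboxylesterases 1 gene rose and 7 fell on average. The Ces1 genes lie on chromosome 8 at 93099015 to 93337308 and the Ces2 genes at 104831572 to 105021178. Ces2e ran from 10.8 to 12.9 CPM (median 11.9) in diabetic vehicle mice, against 5.19 to 8.26 CPM (median 7.27) in nondiabetic vehicle mice. With benzo-LXA4 it ran from 9.59 to 13.6 CPM (median 11.5) in diabetic mice, against 4.91 to 6.87 CPM (median 5.84) in nondiabetic mice. Both pairs were separated, and the LXA4 groups overlapped. Ces2e rose by 0.80 (adjusted p = 0.000298) under vehicle, 0.63 (adjusted p = 0.00114) under LXA4 and 0.97 (adjusted p = 2.22e-05) under benzo-LXA4, with 18 of 18 diabetic libraries above the nondiabetic mean. The average was 0.80 (95% interval 0.64 to 0.96, adjusted p = 2.28e-09). Only 3.30% of its 50-base words occur in another gene.

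Ces1f, the most abundant of the family, ran from 255 to 332 CPM (median 318) in diabetic LXA4 mice, against 489 to 585 CPM (median 532) in nondiabetic LXA4 mice, with no overlap. It fell under LXA4 and vehicle, with log2 differences of -0.78 (adjusted p = 0.00312) and -0.72 (adjusted p = 0.0188), and the difference under benzo-LXA4 was -0.42 (adjusted p = 0.237). Ces1d, a triglyceride hydrolase of lipid droplets and the endoplasmic reticulum, ran from 85.7 to 158 CPM (median 129) in diabetic vehicle mice, against 189 to 293 CPM (median 236) in nondiabetic vehicle mice, again with no overlap. It fell under vehicle, with -0.90 (adjusted p = 0.0106), a call that held without each of the 12 libraries in turn. Ces2b and Ces2c fell under vehicle, with -1.34 (adjusted p = 0.0275) and -0.75 (adjusted p = 0.0192), and under LXA4, with -1.39 (adjusted p = 0.00678) and -0.70 (adjusted p = 0.00854). Their vehicle calls, and that of Ces1f, were each lost without diabetic vehicle replicate 3, 4 or 5 or nondiabetic vehicle replicate 6, that of Ces1f also without nondiabetic replicate 1 and that of Ces2b without nondiabetic replicate 5. Ces1g fell under benzo-LXA4, with -1.83 (adjusted p = 0.0340), a call lost without any of 7 of the 12 libraries. Ces1e fell under LXA4, with -0.77 (adjusted p = 0.0161), a call lost in a fit of only the LXA4 groups (adjusted p = 0.0582). Under LXA4 Ces2f, at 0.500 ± 0.282 CPM in diabetic and 0.215 ± 0.0865 CPM in nondiabetic mice, rose by 1.38 (adjusted p = 0.00693). On average Ces1d, Ces1e, Ces1f, Ces1g, Ces2b, Ces2c and Ces2h fell.

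On average 3 of the 7 sulfotransferase genes were called (42.9%), near the 35.4% of all genes. Sult1d1 and Sult1c2, the abundant ones, differed by -0.15 (adjusted p = 0.507) and -0.054 (adjusted p = 0.537) on average. Without diabetic LXA4 replicate 6, which was lowest in Sult1d1, these averages were -0.063 (adjusted p = 0.522) and -0.018 (adjusted p = 0.795). Sult5a1 ran from 2.66 to 4.01 CPM (median 3.27) in diabetic LXA4 mice, against 1.28 to 1.92 CPM (median 1.5) in nondiabetic LXA4 mice. With benzo-LXA4 it ran from 2.61 to 3.94 CPM (median 3.40) in diabetic mice, against 0.669 to 2.15 CPM (median 2.01) in nondiabetic mice. Both pairs were separated, at low levels. It rose by 1.05 (adjusted p = 0.000724) under LXA4 and 0.89 (adjusted p = 0.00964) under benzo-LXA4, and the difference under vehicle was 0.45 (adjusted p = 0.206). Sult2a3, of the steroid sulfotransferases, fell under LXA4, with -1.58 (adjusted p = 0.0133), and Sult1a1, which sulfates phenols, rose on average by 0.44 (adjusted p = 0.00647).

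Promoter windows were read for members that moved apart. A window covers 250 bases before to 50 bases after a gene's start, from RefSeq on GRCm38.p6, and 54 members matched with 64 windows. The letters GTTAAT, a core of the site of the tubular factor HNF1, were searched on both strands after the values were known. They occurred in 7.10% of 32851 mouse windows and in 11 of the 64 windows of members, those of Ugt1a10, Gsta3 and Sult1a1, which rose on average, of Cyp2a4, Cyp2c69, Cyp2d26, Sult2a3, Ugt2a3 and Ugt3a1, which fell, and of Cyp2a5 and Sult1d1, which were not called. TGACNNNGC, the core of the antioxidant response element, occurred in 12.4% of all windows and in 4 of the 64 (Cyp2j6, Gsta3, Gstm5 and Gstm7). GCGTG, the core of the dioxin response element, occurred in 32.4% and in 14 of the 64. Shown are the gene with the largest rise, 2 genes that fell and hold GTTAAT, and the Ces2 neighbours that moved apart, which hold none of these letters. Capitals mark GTTAAT or its complement, ATTAAC. The windows are chr1:88055161-88055460 on the plus strand for Ugt1a10, chr7:26306942-26307241 on the plus strand for Cyp2a4, chr15:82794196-82794495 on the minus strand for Cyp2d26, and chr8:104926010-104926309 and chr8:104846818-104847117, both on the plus strand, for Ces2e and Ces2c. A match is a description of these letters and not a site in use.
Ugt1a10: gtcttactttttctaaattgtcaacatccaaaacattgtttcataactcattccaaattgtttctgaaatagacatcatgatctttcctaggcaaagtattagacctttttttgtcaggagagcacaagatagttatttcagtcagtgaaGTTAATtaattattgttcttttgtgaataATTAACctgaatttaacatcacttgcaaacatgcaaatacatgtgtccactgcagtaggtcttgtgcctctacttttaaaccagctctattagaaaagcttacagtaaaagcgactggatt
Cyp2a4: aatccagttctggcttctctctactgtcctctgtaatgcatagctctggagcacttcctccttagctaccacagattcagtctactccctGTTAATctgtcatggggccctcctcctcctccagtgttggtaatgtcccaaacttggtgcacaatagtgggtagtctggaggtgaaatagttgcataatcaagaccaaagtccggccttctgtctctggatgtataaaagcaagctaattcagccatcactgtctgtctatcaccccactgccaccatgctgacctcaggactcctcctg
Cyp2d26: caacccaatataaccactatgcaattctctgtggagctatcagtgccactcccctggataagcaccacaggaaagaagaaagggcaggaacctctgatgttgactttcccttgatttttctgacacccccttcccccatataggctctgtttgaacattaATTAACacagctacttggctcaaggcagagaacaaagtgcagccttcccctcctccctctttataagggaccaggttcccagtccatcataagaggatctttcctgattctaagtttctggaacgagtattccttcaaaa
Ces2e: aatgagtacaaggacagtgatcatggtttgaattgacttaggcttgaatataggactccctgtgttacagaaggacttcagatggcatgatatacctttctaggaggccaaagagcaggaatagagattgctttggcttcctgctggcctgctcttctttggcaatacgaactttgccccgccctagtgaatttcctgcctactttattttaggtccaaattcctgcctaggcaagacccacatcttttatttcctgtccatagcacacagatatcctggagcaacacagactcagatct
Ces2c: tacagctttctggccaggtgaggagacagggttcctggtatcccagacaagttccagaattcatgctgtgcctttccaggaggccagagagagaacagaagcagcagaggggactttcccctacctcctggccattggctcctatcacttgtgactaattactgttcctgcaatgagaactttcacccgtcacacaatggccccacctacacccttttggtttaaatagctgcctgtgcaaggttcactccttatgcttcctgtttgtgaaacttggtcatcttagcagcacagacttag

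Of the other genes of drug metabolism, called phase I enzymes lay on both sides on average, while called phase II genes almost all fell. Of 48 other phase I enzymes measured 8 rose and 16 fell on average, and of 28 other phase II enzymes and suppliers of their cofactors 1 rose and 13 fell, against the 18.8% higher and 16.6% lower of all genes. Rising phase I genes were thus no more frequent than rising genes of the whole table. Under vehicle the counts were 8 and 4 of 48 and 0 and 2 of 28, under LXA4 9 and 13 and 0 and 10, and under benzo-LXA4 3 and 1 and 0 and 0. Of all genes 3.44% were higher and 2.16% lower under vehicle, 15.4% and 12.3% under LXA4, and 2.81% and 1.25% under benzo-LXA4. Among the phase I genes Ephx1 (1.28, adjusted p = 2.76e-10), the microsomal epoxide hydrolase, the retinal dehydrogenase Aldh1a1 (1.52, adjusted p = 3.98e-07) and its relative Aldh1a7 (1.22, adjusted p = 5.85e-07) rose on average. The flavin monooxygenase Fmo5 (-0.62, adjusted p = 6.40e-06), the sterol demethylase Cyp51 (-0.59, adjusted p = 3.22e-07) and Cyb5b (-0.27, adjusted p = 4.16e-06) fell. In the phase II list the fallen genes included Ggct (-0.57, adjusted p = 5.33e-05) and Ggt1 (-0.36, adjusted p = 0.000168) of glutathione turnover, Gclm (-0.30, adjusted p = 0.000514) of glutathione synthesis, the sulfate donor phosphatase Bpnt1 (-0.23, adjusted p = 0.000130) and the glycine conjugation genes Acsm3 (-0.75, adjusted p = 0.000737) and Acsm2 (-0.47, adjusted p = 0.00199). Of 21 xenobiotic sensors and regulators measured 1 was called on average, Hnf4a (-0.30, adjusted p = 0.000160), a nuclear receptor of proximal tubule and liver, which fell.

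Some lists of cell type markers moved with these differences. Of all genes tested 18.8% were higher and 16.6% lower on average. Of the 16 proximal tubule markers 0 rose and 12 fell on average. Their summed level was 15246 to 26971 CPM (median 21855) in diabetic vehicle mice, against 21652 to 33754 CPM (median 28232) in nondiabetic vehicle mice. Under LXA4 it was 15747 to 24412 CPM (median 21154) in diabetic mice, against 29815 to 34102 CPM (median 31855) in nondiabetic mice, without overlap. Of 8 genes known as male-biased in mouse kidney 0 rose and 7 fell, with a sum of 3359 to 8178 CPM (median 7139.6) in diabetic LXA4 mice, against 11779 to 15145 CPM (median 13636) in nondiabetic LXA4 mice. Of 9 tubular injury genes measured 5 rose and 0 fell, and their sum was 495 to 1044 CPM (median 653) in diabetic vehicle mice, against 378 to 512 CPM (median 417) in nondiabetic vehicle mice. Of 9 hepatocyte markers measured 0 rose and 1 fell, at a sum of 48.1 to 79.4 CPM (median 58.5) in diabetic and 45.8 to 109 CPM (median 87.6) in nondiabetic vehicle mice. Alb, which encodes albumin, averaged 7.12 CPM in diabetic and 6.91 CPM in nondiabetic vehicle mice, and Serpina3k, Ahsg and Tat were not among the genes measured. Under LXA4, where 12.3% of all genes fell, 2 of the 9 hepatocyte markers fell, with a median log2 difference of -0.95 over the list. The sum over the list was 50.8 ± 17.7 CPM in diabetic and 85.8 ± 13.5 CPM in nondiabetic mice. Of the other lists on average, 5 rose and 1 fell of 12 glomerulus and vessel markers, 2 and 1 of 12 of the loop, distal tubule and collecting duct, 3 and 0 of 7 immune, 0 and 3 of 7 adipose, 0 and 0 of 7 urothelium and inner medulla and 2 and 0 of 5 female-biased genes. Loop, distal tubule and collecting duct, urothelium and inner medulla, and hepatocyte markers were called less often on average than the 35.4% of all genes. Under benzo-LXA4 all 7 adipose markers fell, beside 1.25% of all genes, with a median log2 difference of -8.20. Their sum was 8.89 to 16.8 CPM (median 13.0) in diabetic mice, against 9.43 to 758 CPM (median 15.4) in nondiabetic mice, where replicate 1 alone held 758 CPM. The number of members called under benzo-LXA4 was 7 with and 7 without that library. Under LXA4 2 of 7 urothelium and inner medulla markers rose, beside 15.4% of all genes, with a median of 2.54 over the list. Their sum was 19.4 to 200.4 CPM (median 39.8) in diabetic and 3.14 to 47.1 CPM (median 18.4) in nondiabetic mice. Of the adrenal list 1 gene was measured and not called. Kap stands in both the proximal tubule and the male-biased list, and Hnf4a, Ggt1, Acsm3, Cyp4b1, Cyp4a12a, Cyp4a12b and Cyp4a14 stand in 1 of these lists and in 1 of the lists of sensors and other enzymes. The part of tubule content, injury, the male-biased genes and RNA of these other tissues in the members' differences was not tested.

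Neither compound changed any member past the threshold within diabetic or within nondiabetic mice. Their doses differ, so their values are given side by side without a comparison, and both were set against the same vehicle libraries. In diabetic mice LXA4 called 0 members against 0.356% of all genes. An unadjusted p under 0.05 was held by 13 of the 66 members and 2468 of the 15726 genes. DESeq2 called 0 members and 231 of all genes, and voom with quality weights 2 members and 172 of all genes. Benzo-LXA4 called 0 members against 0% of all genes, with 9 members and 891 of all genes at an unadjusted p under 0.05. DESeq2 and voom called 0 members, and 52 and 105 of all genes. In nondiabetic mice edgeR, DESeq2 and voom called 0 members for either compound, with 0% of all genes in edgeR. An unadjusted p under 0.05 was held by 2 members and 967 of all genes for LXA4, and by 4 members and 452 of all genes for benzo-LXA4.

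The member nearest to the threshold was Cyp2c69. It held 0 to 0.300 CPM (median 0.248) in diabetic LXA4 mice and 0.232 to 0.494 CPM (median 0.401) in diabetic benzo-LXA4 mice, against 0.535 to 1.01 CPM (median 0.672) in diabetic vehicle mice. Neither compound group overlapped the vehicle group, and all levels were low. The log2 difference from vehicle was -1.62 (95% interval -2.41 to -0.83, adjusted p = 0.0518) with LXA4 and -0.87 (95% interval -1.58 to -0.15, adjusted p = 0.751) with benzo-LXA4. Cyp2j8 differed by -0.80 (95% interval -1.38 to -0.21, adjusted p = 0.195) with LXA4. Without diabetic LXA4 replicate 6 it fell by 1.12 on the log2 scale (adjusted p = 0.0373), the single member called in that setting. Ugt2b34 differed by -0.63 (95% interval -1.11 to -0.15, adjusted p = 0.211) with LXA4 and -0.66 (95% interval -1.13 to -0.18, adjusted p = 0.584) with benzo-LXA4.

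Ugt1a10, Gsta2 and Gsta4, which stood high in diabetic vehicle mice, had differences below 0 under both compounds. Ugt1a10 differed from vehicle by -1.30 (95% interval -2.45 to -0.15, adjusted p = 0.265) with LXA4 and -1.06 (95% interval -2.2 to 0.072, adjusted p = 0.918) with benzo-LXA4. For Gsta2 the differences were -0.87 (95% interval -1.43 to -0.31, adjusted p = 0.154) and -0.58 (95% interval -1.1 to -0.027, adjusted p = 0.848), with LXA4 and with benzo-LXA4. Gsta4, which clears hydroxynonenal, differed by -0.53 (95% interval -1.07 to 0.016, adjusted p = 0.329) with LXA4 and by -0.70 (95% interval -1.24 to -0.16, adjusted p = 0.681) with benzo-LXA4. Ces1d, which had fallen under vehicle in diabetic mice, differed by 0.48 (95% interval 0.04 to 0.91, adjusted p = 0.280) with LXA4 and 0.52 (95% interval 0.079 to 0.95, adjusted p = 0.770) with benzo-LXA4. Diabetic vehicle replicates 3, 4 and 5 held the highest Ugt1a10, Gsta2 and Gsta4 values of the vehicle group. The diabetic vehicle libraries enter both the comparison with nondiabetic mice and those with the compounds. Genes picked as high or low in them would tend to differ in this direction even without a compound effect, which was not tested separately. In nondiabetic mice the smallest p-values belonged to Ces2f with LXA4 (-1.07, adjusted p = 0.807) and Cyp2d12 with benzo-LXA4 (-0.85, adjusted p = 1).

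**Figure D5:**
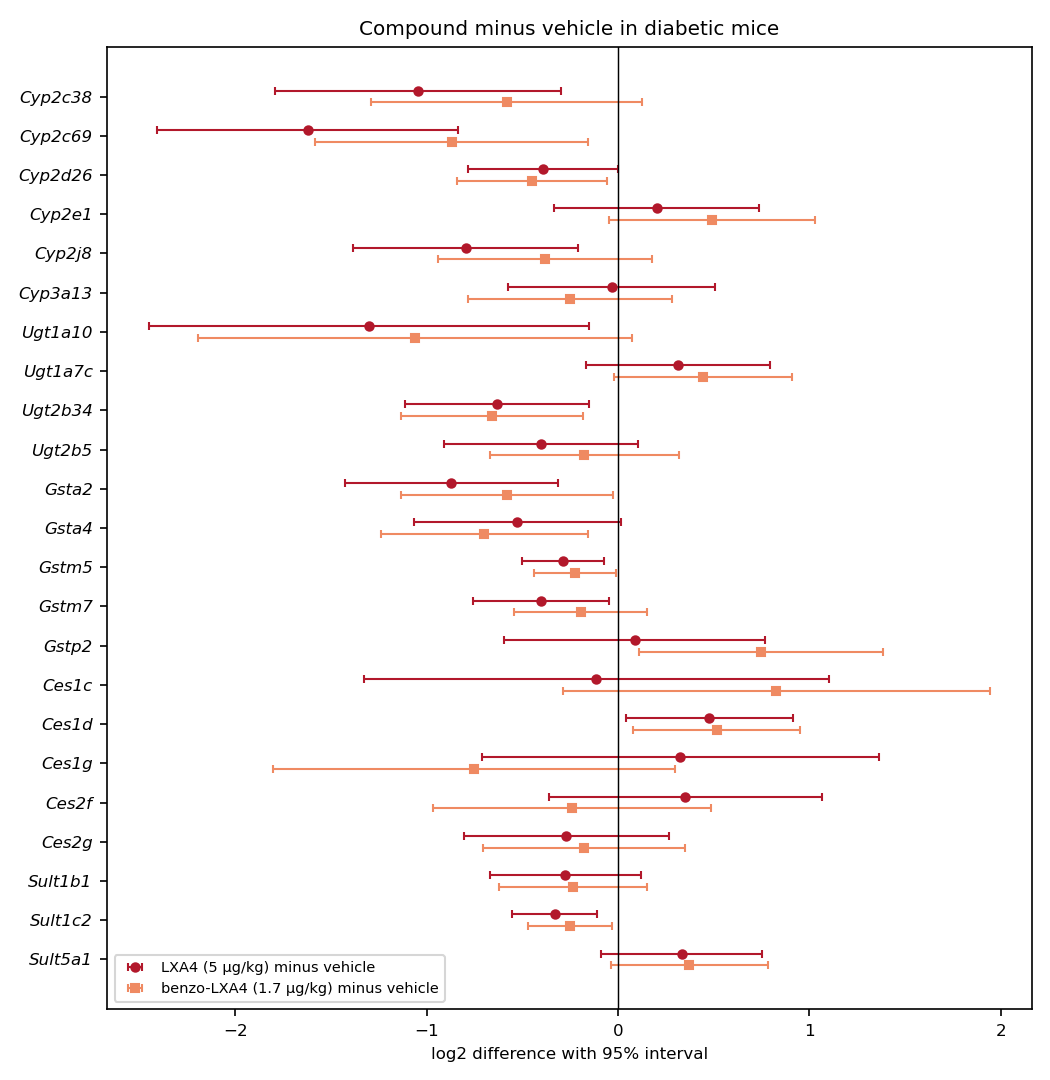
The log2 difference of LXA4 (5 µg/kg) and of benzo-LXA4 (1.7 µg/kg) from vehicle in diabetic mice, with 95% intervals, for the 23 members with the smallest p-values of their family in these comparisons. Both series share the vehicle libraries, and no member passed an adjusted p of 0.05; Cyp2c69 and Ugt1a10 lie farthest to the left.

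Whether the difference between diabetic and nondiabetic mice itself changed with a compound was tested as an interaction. For LXA4 0 members were called against 0.248% of all genes, with 10 members and 2592 of all genes at an unadjusted p under 0.05. For benzo-LXA4 0 members were called against 0%, with 5 members and 673 of all genes at that level. DESeq2 and voom called 0 members for both, and 266 and 211 of all genes for LXA4. The smallest p-values were those of Ugt2b34 for LXA4, at -1.0 (95% interval -1.67 to -0.33, adjusted p = 0.158), and of Cyp2d12 for benzo-LXA4, at 1.19 (95% interval 0.29 to 2.09, adjusted p = 0.957). The count of members called was larger under LXA4 than under vehicle, but for no single member did this test pass. The median interaction over members was -0.22 for LXA4 and 0.10 for benzo-LXA4, beside 0.03 and 0.01 over all genes. Without both libraries rich in structural RNA the members' medians were -0.16 and 0.10, and with voom -0.038 and 0.16.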

How the data were processed

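Libraries were directional and were made from kidney cortex RNA after removal of ribosomal RNA, per the labels' protocols. The authors deposited raw counts in a single table with a column for each of the 36 libraries, all matched to labels. The submitters' processing notes name bcl2fastq 2.17.1.14 for base calls, STAR for alignment, featureCounts for counting and the build GRCm38. For STAR and featureCounts the version is not given in the sources used here, nor are the strand setting and the treatment of reads that match several genes. No gene of the table has fewer than 370 counts over all libraries.

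The test on these counts was edgeR's quasi-likelihood F test (version 4.0.16, R 4.3.3) in 1 fit of all 36 libraries, scaled by TMM, after edgeR's filter on low counts had kept 15726 genes. P-values were adjusted by Benjamini-Hochberg over all genes of a comparison, with a threshold of 0.05. There were 10 comparisons. CPM are relative to the TMM-scaled total, and depth enters through the count model; intervals are at 95%. Family sums are a description without a test. Alternatives were RLE and upper-quartile factors, no filter, a filter at a mean of 5 CPM, DESeq2 1.42.0, voom with quality weights (limma 3.58.1), a replicate block, fits of only the groups compared, fits without both libraries rich in structural RNA, and each library left out in turn. Same-numbered libraries correlated above 0.1 in all 6 pairs in nondiabetic benzo-LXA4 and nondiabetic vehicle mice (0.116 to 0.474) and in no other pair of groups; the replicate block called 0 members there, as did the fit without it. Gene lengths, coordinates (counted from 1) and shared 50-base words come from GENCODE M21, where 15692 genes and all 66 members were found.

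The members and lists were chosen with earlier results of these data known. Named are members called in any comparison, the 3 of each family with the highest level per kilobase, and the 3 with the lowest p in the vehicle comparison of diabetic with nondiabetic mice and in each compound comparison in diabetic mice, 56 in all. Of the other lists up to 6 called genes by lowest p are named. Searches for GTTAAT and GCGTG and the choice of promoters shown were made after the values were seen.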

Additional observations from a re-analysis of the deposited data

Results flagged for a closer look

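Of 372 groups of 6 libraries checked for a library far from the rest, 28 were flagged, and chance flags about 1 in 20. In diabetic LXA4 mice 9 flags belong to replicate 6, the library with most structural RNA. It was lowest in Cyp2j5 (276 CPM, others at least 583), Ugt3a1 (33.8), Ugt3a2 (296), Gstk1 (5.90), Sult1d1 (26.9), Ces2g (0) and the Sult sum (78.4), and highest in Cyp2j8 (9.45, others at most 3.97) and Cyp2j15-ps (150.4, others at most 29.6). Replicate 5 of that group was lowest in Ces1f (255).

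In diabetic vehicle mice replicate 4 was highest in Cyp2d9 (112.8 CPM) and Cyp2j9 (54.7), replicate 3 in Cyp2r1 (2.54) and replicate 2 in Ugt2a3 (1.85). In diabetic benzo-LXA4 mice replicate 4 was highest in Cyp2d12 (68.4) and Gsta2 (115), replicate 2 in Gstm4 (8.68), and replicates 3 and 5 were lowest in Gstm7 (3.03) and Sult1b1 (1.24).

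In nondiabetic benzo-LXA4 mice replicate 3 was highest in Cyp2d9 (132 CPM), Ugt1a10 (3.50, others at most 0.803), Cyp2s1 (10.9) and Gsta3 (62.8), and replicate 1 in Cyp2e1 (1207) and Gsta4 (30.03). In nondiabetic vehicle mice replicate 3, also rich in structural RNA, was highest in Cyp2s1 (11.7) and replicate 6 in Ces1c (0.358). Replicate 1 of the nondiabetic LXA4 mice was lowest in Cyp2u1 (12.9).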

How the results depend on the processing

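The direction of every member named as called held under all alternatives run, and none reversed. Of the members called, 41 of 45 kept their call on average over treatments in every alternative that tested them, as did 6 of 13 under vehicle, 21 of 31 under LXA4 and 6 of 7 under benzo-LXA4. The 5 CPM filter left members of low level untested and called 32 of the 45, 10 of the 13, 22 of the 31 and 4 of the 7. Of all genes it called 3881, 442, 3527 and 313 in the same order, against 5570, 881, 4353 and 638. Under vehicle the 13 became 7 in a fit of only those groups and 28 with voom, and leaving out 1 library gave 6 to 17. Those fits called 342, 2221 and 441 to 1338 of all genes, against 881. Under benzo-LXA4 the 7 became 4 with the 5 CPM filter, 14 without both libraries rich in structural RNA, 16 in a fit of only those groups and 18 with voom (6 to 7 without 1 library), in fits that called 313, 1906, 1875 and 2568 of all genes, against 638. For LXA4 in diabetic mice the 0 became 1 without both libraries rich in structural RNA and 2 with voom (0 to 1 without 1 library). Of all genes these fits called 93 and 172 (0 to 88 without 1 library), against 56. Leaving out 1 library gave 26 to 31 under LXA4, 42 to 47 on average and 0 in the other comparisons. Of all genes these fits called 3446 to 4854 under LXA4 and 5096 to 7101 on average. The causes were not tested. Family sums moved by less than 1 SD between libraries in all 96 checks, made without TMM scaling or without both libraries rich in structural RNA. Leaving out at most 1 of 6 libraries of a group could hardly move a mean by more, so that check decides little. Of 90 same-numbered pairs of libraries 35 correlated above 0.1 (median 0.008), and 16 matched best. All 6 pairs exceeded 0.1 only between nondiabetic benzo-LXA4 and nondiabetic vehicle mice. With a replicate block 12, 30, 7 and 45 members were called under vehicle, LXA4, benzo-LXA4 and on average, and 0 elsewhere. Of all genes the block called 805, 4100, 542 and 5443 in the same order. Depth limits the 10 members under a mean of 1 CPM, and counts of near-identical members depend on how shared reads were assigned.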

Other observations

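Gstp1, a pi-class transferase chosen here after its values were seen, stood at 98.7 CPM in diabetic LXA4 replicate 6 and 91.2 CPM in nondiabetic vehicle replicate 3, the libraries with most structural RNA. The next highest of the other libraries held 38.5 CPM. Of the 50-base words of Gstp1 33.7% occur in Gstp2, so the member from which these reads came is uncertain. The average difference of Gstp1 between diabetic and nondiabetic mice was -0.12 (adjusted p = 0.636 in edgeR), and without diabetic LXA4 replicate 6 it was -0.29 (adjusted p = 0.0695).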
